A study of Rattus norvegicus with 42 samples.

Results

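The transcripts described here belong to the enzymes that write DNA methylation and to the proteins that read it: the DNA methyltransferases Dnmt1, Dnmt3a and Dnmt3b, the maintenance partner Uhrf1, and the methyl-CpG binding domain proteins Mbd1, Mbd2 and Mbd3. They were chosen by gene symbol, and all 7 genes were listed among 14304 gene symbols in the count table. Dnmt3a was listed as 2 transcripts and every other gene as 1, and all 8 transcripts passed the filter on low counts, as did 13062 of 15516 transcripts in all. Hippocampi came from Sprague Dawley rat pups, male per the labels, that received 1 intraperitoneal injection on postnatal day 7 of saline vehicle (VEH), phenobarbital at 75 mg/kg (PB) or levetiracetam at 200 mg/kg (LEV). PB and LEV are anti-seizure drugs given to newborns. Tissue was taken 72 h later, on postnatal day 10, and each animal gave 1 library. The sample codes take 2 forms, which divide the animals of each treatment into animals 1 to 6 and animals 7 to 14. The labels say that animals were bought in 2 orders, and do not say which animals came in which order or litter. VEH animal 7 is labelled as excluded and was left out, so 13 VEH, 14 PB and 14 LEV animals were compared, of which 6 in each treatment were animals 1 to 6.

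Methyl groups on cytosines of CpG dinucleotides are placed on unmodified DNA mainly by Dnmt3a and Dnmt3b, and are copied to the new strand at replication by Dnmt1, which Uhrf1 brings to hemimethylated sites. Mbd1 and Mbd2 bind methylated CpGs and recruit repressor complexes, while Mbd3 is a subunit of the NuRD complex that binds methylated DNA poorly in mammals. In the developing brain Dnmt3a is the methyltransferase of postnatal neurons, Dnmt1 is found in dividing and in postmitotic cells, and Uhrf1 is a gene of dividing cells.

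The promoter windows of the genes that the results turn on are given to show the CpG content of the region around each start. They are RefSeq windows on the GRCr8 build, from 250 bases before to 50 bases after a start site, and capitals mark CpG dinucleotides. RefSeq windows were found for 6 of the 7 genes, with none for Dnmt3b. The Dnmt3a window lies at chr6:32598352-32598651 on the plus strand, the Dnmt1 window at chr8:27762792-27763091 on the minus strand, and the Uhrf1 window with the most CpGs of its 3 at chr9:1222936-1223235 on the plus strand.
Dnmt3a: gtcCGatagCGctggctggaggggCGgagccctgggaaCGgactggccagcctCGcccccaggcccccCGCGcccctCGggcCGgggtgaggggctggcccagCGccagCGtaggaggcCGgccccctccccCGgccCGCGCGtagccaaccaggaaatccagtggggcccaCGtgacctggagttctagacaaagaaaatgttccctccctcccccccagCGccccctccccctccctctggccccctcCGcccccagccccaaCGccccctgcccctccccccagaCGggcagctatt
Dnmt1: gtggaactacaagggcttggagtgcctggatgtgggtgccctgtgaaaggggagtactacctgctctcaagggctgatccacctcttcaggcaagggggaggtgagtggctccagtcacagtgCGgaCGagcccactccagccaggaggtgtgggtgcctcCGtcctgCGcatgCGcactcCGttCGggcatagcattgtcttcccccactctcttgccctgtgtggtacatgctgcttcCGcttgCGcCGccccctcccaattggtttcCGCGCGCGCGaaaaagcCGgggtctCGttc
Uhrf1: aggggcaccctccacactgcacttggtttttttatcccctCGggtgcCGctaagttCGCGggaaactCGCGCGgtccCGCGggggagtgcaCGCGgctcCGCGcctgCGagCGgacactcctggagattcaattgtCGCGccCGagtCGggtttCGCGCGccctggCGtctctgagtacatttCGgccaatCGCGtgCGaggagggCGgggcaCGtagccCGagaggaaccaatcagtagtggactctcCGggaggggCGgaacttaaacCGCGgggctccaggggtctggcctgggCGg
The Dnmt3a window held 21 CpGs, the Dnmt1 window 17 and this Uhrf1 window 35, against a median of 7 over all 33469 windows of the same length. In the same order, 79%, 72.5% and 94.6% of all windows held as many CpGs or fewer. The other Uhrf1 windows held 8 and 13 CpGs. The window table does not name which of the Dnmt3a transcripts starts there. On either strand, the letters TTTNGCGC, an E2F motif, were found once in the Dnmt1 window and once in the printed Uhrf1 window, and 1.28% of all windows held them. The other Uhrf1 windows did not hold them. The E-box letters CACGTG were found once in the Dnmt3a window and in 6.42% of all windows. The letters TGACGT, part of the cyclic AMP response element, were in none of the 3 and in 7.94% of all windows. No printed window held more than 1 of these motifs.

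Library totals ran from 9499492 to 14488134 estimated counts. Values below are normalised counts, that is, counts scaled to a library of 11370387 reads, and they are compared between animals but not between genes, since transcript lengths were not used here. All 5 hippocampal granule and pyramidal neuron markers were detected in every group, with a summed level of 5621 to 7871. Choroid plexus markers, by contrast, summed to between 70.2 and 84271 across animals, red blood cell markers to between 2051 and 4896 in animals 1 to 6 and between 75.5 and 2074 in animals 7 to 14. Skeletal muscle markers summed to 271 to 533 in VEH and LEV animals 1 to 6 and to 69.6 to 165 in the other 4 combinations. The library labelled VEH 1 had 0.825 normalised counts of the Y-linked Eif2s3y against 731 to 1069 in the other 40 animals, which goes against its label as male, so the edgeR calls of the members and of the other named genes, the shares and the S phase list are also given without it. In these bulk samples fewer cells of a type and less RNA per cell cannot be told apart.

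The comparisons asked whether the drugs altered these transcripts. Each was tested in edgeR by quasi-likelihood, with p adjusted by Benjamini and Hochberg over all 13062 transcripts, and a call is an adjusted p under 0.05. Across all animals 1 of the 8 member transcripts, Dnmt1, was called higher in PB than in VEH, where 5.39% of all transcripts were called and 1.93% were called higher. None was called in LEV against VEH, where 0.00766% of all transcripts were called; 1 member, the shorter Dnmt3a transcript, had an unadjusted p under 0.05, as did 5.84% of all transcripts, and DESeq2 also called 0. In PB against LEV, 1 member was called, again Dnmt1, against 4.45% of all transcripts. Across all animals no member reached the study's limits in this edgeR fit, an adjusted p under 0.05 and a change of at least 25%. The study itself, which batch-normalized before DESeq2, listed Dnmt3a among the transcripts higher in LEV than in VEH. With batch and batch-by-treatment effects subtracted before DESeq2, the shorter Dnmt3a transcript was at +1.29 (log2) in LEV against VEH (DESeq2 adjusted p = 0.000929). This setting called 67 of all transcripts, against 1 in the main fit. Its test did not account for the subtracted terms, which can make its p too small. The median log2 fold change of the members was 0.10 in PB against VEH, 0.03 in LEV against VEH and 0.04 in PB against LEV, while the medians over all transcripts were 0.0046, 0.00033 and 0.0033. PB and LEV were compared with the same VEH animals, so these 2 comparisons are not independent.

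Within the forms of sample code the picture differed. In animals 1 to 6, PB against VEH gave 0 member calls with edgeR and 0 with DESeq2, 3 of 8 at an unadjusted p under 0.05 (9.68% of all transcripts), and 0.0842% of all transcripts called. PB against LEV gave 0 with edgeR, 0 with DESeq2 and 0 at an unadjusted p under 0.05 (12.0% of all transcripts), with 0.145% of all transcripts called. LEV against VEH in these animals gave 1 member call, the shorter Dnmt3a transcript, with 1.45% of all transcripts called. In animals 7 to 14, PB against VEH gave 3 member calls, all higher in PB: Dnmt1, Uhrf1 and the longer Dnmt3a transcript, against 6.32% of all transcripts called and 2.67% called higher. The 18S rRNA gene Rn18s took 0.434% to 0.905% of counts in PB animals 7 to 14, with a median of 0.694%. It took 0.853% to 1.199% in VEH animals 7 to 14 (median 1.13%) and 0.384% to 1.06% in LEV animals 7 to 14 (median 0.507%). The highest of these LEV values was that of LEV 7, and the next was 0.580% in LEV 8. In animals 1 to 6 of all 3 treatments the share was 0.932% to 1.68%. The part of Rn18s in these calls was not tested. LEV against VEH in animals 7 to 14 gave 0 member calls with edgeR and with DESeq2, 2 at an unadjusted p under 0.05 (6.13% of all transcripts), and 0.0383% of all transcripts called.

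**Figure D1:**
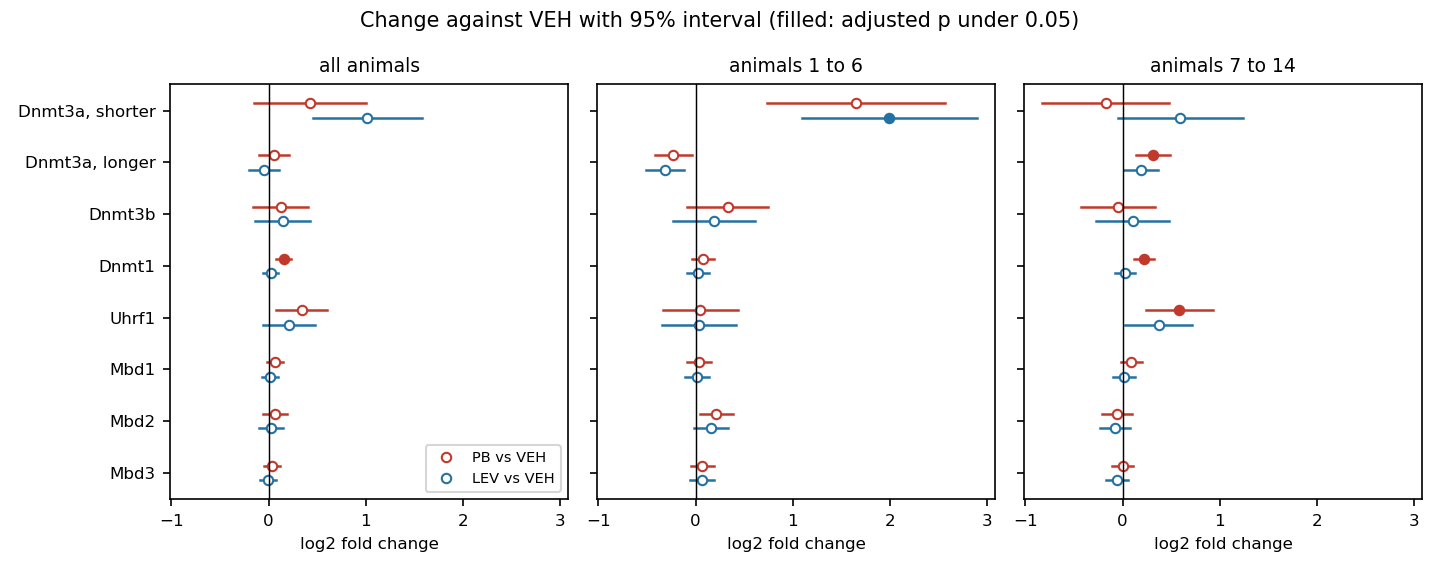
Log2 fold change of each member transcript in PB (red) and LEV (blue) against VEH, for all animals, animals 1 to 6 and animals 7 to 14; lines are 95% intervals and filled points have an adjusted p under 0.05. The filled points are Dnmt1 in PB for all animals, the shorter Dnmt3a transcript in LEV for animals 1 to 6, and Dnmt1, Uhrf1 and the longer Dnmt3a transcript in PB for animals 7 to 14.

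Dnmt3a, which methylates new sites, was listed as NM_001003958 (rn6 chr6:28235695-28340578) and as the shorter NM_001003957 (chr6:28323647-28340578), whose span lies inside the 3′ part of the longer one. Dnmt3a is known to produce a full-length form and a shorter form from an internal start, and the shorter form has been tied to neuronal activity in the hippocampus; which form each listed transcript encodes was not looked up here. Reads from the part that both share were divided between them by the authors' estimation algorithm, and they were the only member transcripts with counts that were not whole numbers.

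The longer transcript carried most of the Dnmt3a counts. In animals 1 to 6 its normalised counts ran from 1514 through a median of 1556 to 1615 in VEH, from 1145 through 1331 to 1479 in PB, and from 1131 through 1246 to 1411 in LEV. All 6 PB and all 6 LEV animals lay below all 6 VEH animals, as groups that did not overlap did for 1.36% of all transcripts in PB and 3.17% in LEV. The log2 fold change was -0.23 ± 0.10 (SE) in PB (edgeR adjusted p = 0.437) and -0.32 ± 0.10 in LEV (adjusted p = 0.103), so neither passed the test. The order was the other way in animals 7 to 14: VEH ran from 875.1 through 1207 to 1473, PB from 1162 through 1483 to 1768, and LEV from 1080 through 1377 to 1576, with overlapping groups. PB was higher than VEH by 0.31 ± 0.09 on the log2 scale (7 of 8 animals above the VEH mean, edgeR adjusted p = 0.0292), whereas LEV was at +0.19 ± 0.09 (6 of 8, adjusted p = 0.808). The PB call was lost without any 1 of PB 7, PB 10, PB 11, VEH 8, VEH 9 and VEH 13 (highest edgeR adjusted p = 0.0829), and it stood without VEH 1 (0.0323). With the opposite directions averaged over all animals, the change was +0.06 ± 0.08 in PB and -0.05 ± 0.08 in LEV.

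The shorter transcript was the member with the widest spread. Among VEH animals 1 to 6 it had 4.17, 8.25, 9.93, 10.6, 13.4 and 15.04 normalised counts. PB animals 1 to 6 ran from 7.90 through a median of 22.8 to 78.8, and LEV animals 1 to 6 from 16.4 through 43.9 to 66.4. Every LEV animal lay above every VEH animal, and these 2 groups did not overlap for 3.17% of all transcripts. The PB range reached into that of VEH. The log2 fold change in LEV was 2.00 ± 0.46 (SE; 6 of 6 animals above the VEH mean, edgeR adjusted p = 0.0128), and it stayed under 0.05 without each animal in turn (highest adjusted p = 0.0459), without VEH 1 included (log2 fold change 1.95, adjusted p = 0.0417). In PB the value was 1.65 ± 0.47 with 5 of 6 animals above the VEH mean, and it did not pass (edgeR adjusted p = 0.164). Beside the LEV call, astrocyte markers summed to 28013 to 32208 in LEV and 33370 to 39705 in VEH animals 1 to 6, oligodendrocyte precursor markers to 6369 to 7352 and 7400 to 8279, and endothelial markers to 3061 to 3441 and 2591 to 2962, so none of these ranges overlapped. Of the 13 astrocyte transcripts 3 were called lower and 1 higher in LEV, of the 4 precursor transcripts 1 was called lower, and of the 6 endothelial transcripts 0 were called (median log2 fold change 0.19). Their part in the result was not tested.

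Animals 7 to 14 had the shorter transcript at 41.1 through 68.4 to 107.9 in VEH, 38.8 through 61.5 to 73.7 in PB and 26.7 through 85.3 to 212.8 in LEV. All 3 ranges overlapped, and LEV 8 (180.3) and LEV 11 (212.8) were the highest of all animals. LEV was at +0.59 ± 0.33 against VEH (5 of 8 animals above the VEH mean, edgeR adjusted p = 0.834) and PB at -0.17 ± 0.33 (3 of 8, adjusted p = 0.806). Over all animals, 11 of 14 LEV animals were above the VEH mean of their form, and the change of 1.02 ± 0.29 did not pass (edgeR adjusted p = 0.386). With a form by treatment term averaged over both forms it was 1.30 with an edgeR adjusted p of 0.0408. With batch and batch-by-treatment effects subtracted before DESeq2, after the study's methods, it was 1.29 with a DESeq2 adjusted p of 0.000929. That DESeq2 test did not account for the subtracted terms, which can make its p too small. PB was lower than LEV by a log2 fold change of -0.59 ± 0.28 (12 of 14 animals below, edgeR adjusted p = 0.221, and 0.0466 without PB 5).

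**Figure D2:**
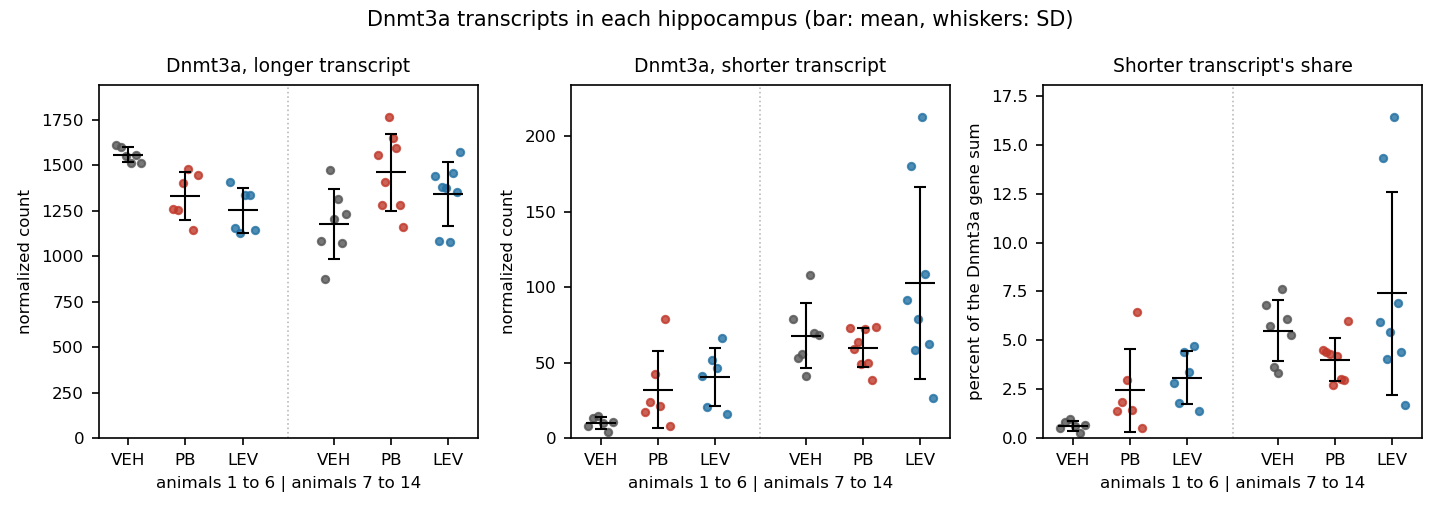
Normalised counts of the longer and shorter Dnmt3a transcripts and the shorter transcript's percent of the gene sum in each animal (points), by treatment, with animals 1 to 6 left and animals 7 to 14 right of the dotted line; bars are means and whiskers SD. VEH animals 1 to 6 sit at the top for the longer transcript (1514 to 1615) and at the bottom for the shorter one (4.17 to 15.04).

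The division of reads between the transcripts was also compared as the shorter one's percent of the Dnmt3a gene sum, which does not depend on library size. In animals 1 to 6 VEH had a share of 0.644% ± 0.246 (SD, n = 6), PB one of 2.45% ± 2.12 (n = 6) and LEV one of 3.09% ± 1.35 (n = 6). The share was higher in LEV than in VEH by 2.44 percentage points (exact permutation test, two-sided, p = 0.00216, adjusted over 3 comparisons 0.00649) and higher in PB by 1.81 points (exact permutation test p = 0.0108, adjusted 0.0162). The PB difference was 1.00 point without PB 5 (exact permutation test, adjusted p = 0.0227), and its adjusted p rose above 0.05 without any 1 of the 6 VEH animals (1.78 points and 0.0617 without VEH 1, highest 0.0682), whereas the LEV difference ran from 2.11 to 2.78 points without each animal in turn (highest adjusted p = 0.0195, also the value without VEH 1). PB and LEV did not differ beyond their spread (exact permutation test p = 0.563). For animals 7 to 14 these were 5.50% ± 1.58 (n = 7), 4.02% ± 1.08 (n = 8) and 7.40% ± 5.18 (n = 8), and no pair passed (exact permutation tests, lowest adjusted p = 0.135), although without LEV 14 the PB difference from LEV was -4.20 points (adjusted p = 0.0294). Over all animals, permuting within forms, the LEV difference from VEH of 2.29 points had a permutation p of 0.0673 (adjusted 0.101), and without LEV 14 the adjusted p was 0.0264. The PB difference from LEV of -2.21 points had a permutation p of 0.0657 (adjusted 0.101), which passed without LEV 14 or PB 5 (lowest adjusted 0.0264).

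The starting level in VEH differed between the forms of sample code, a comparison added after the values had been seen. The shorter transcript was higher in VEH animals 8 to 14 than in VEH animals 1 to 6 by 2.74 ± 0.44 on the log2 scale (edgeR adjusted p = 7.8e-05, and 0.000364 without VEH 1), and the longer one was lower, at -0.40 ± 0.09 (adjusted p = 0.00569, and 0.0135 without VEH 1). For both, the VEH groups did not overlap, as for 3.15% of all transcripts, and these were 2 of 8 members called where 7.15% of all transcripts were. In LEV the shorter transcript differed between forms by 1.34 ± 0.36 (edgeR adjusted p = 0.00862; 16.3% of all transcripts called) and in PB by 0.91 ± 0.37 (adjusted p = 0.106, and 0.0124 without PB 5; 10.9% called). The longer transcript, in the fit without VEH 1, differed between forms by 0.14 ± 0.09 in PB (edgeR adjusted p = 0.362). In LEV it differed by 0.10 ± 0.09 (adjusted p = 0.516), so neither passed. Red blood cell markers differed between the forms in the same direction in all 3 treatments, and muscle markers in VEH and LEV. The median of the astrocyte markers in VEH was 34580 in animals 1 to 6 against 38239 in animals 7 to 14, and those in the same order were 33710 and 41291 in PB, and 29847 and 39199 in LEV, and the ranges of the forms did not overlap in PB and LEV. The part of these markers in the result was not tested.

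Whether the drug response itself differed between forms was tested as an interaction, the change in animals 7 to 14 minus that in animals 1 to 6. The PB and LEV interactions both contain the VEH difference between forms given above, so they are not independent. For the longer transcript it was 0.54 ± 0.13 in PB (edgeR adjusted p = 0.103) and 0.50 ± 0.13 in LEV (adjusted p = 0.0514), and for the shorter one -1.83 ± 0.58 (adjusted p = 0.208) and -1.40 ± 0.57 (adjusted p = 0.265). None of the 8 members was called in either interaction by edgeR, with 4 in PB and 2 in LEV at an unadjusted p under 0.05 (11.1% and 12.8% of all transcripts), and 0.0689% and 0.842% of all transcripts called. DESeq2 called the longer transcript in both, with adjusted p of 0.0322 in PB and 0.018 in LEV. Over all transcripts it called 45 in PB and 207 in LEV.

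Summed over both transcripts, Dnmt3a followed its longer transcript. Over animals 1 to 6 VEH had a gene sum of 1570 ± 42.8 (SD, n = 6), PB of 1364 ± 117 (n = 6) and LEV of 1294 ± 134 (n = 6), and all PB and LEV animals lay below the VEH mean. The later animals had 1248 ± 197 (n = 7), 1524 ± 212 (n = 8) and 1446 ± 122 (n = 8), with all 8 LEV animals above the VEH mean. The PB change of 0.29 ± 0.08 in animals 7 to 14 passed (edgeR adjusted p = 0.0202 over 12165 gene sums, of which 6.89% were called), and was lost without PB 10, PB 11 or VEH 9 (highest adjusted p = 0.0627). The LEV response differed between forms by 0.48 ± 0.12 (edgeR adjusted p = 0.0316; 0.855% of gene sums called), from -0.27 ± 0.09 in animals 1 to 6 to 0.21 ± 0.08 in animals 7 to 14. Without VEH 1 this was 0.47 with an adjusted p of 0.0593, and it also missed 0.05 without any 1 of VEH 2, VEH 9, VEH 13, LEV 2, LEV 3, LEV 6, LEV 7 and LEV 14 (highest 0.0672). In PB the same difference was 0.50 ± 0.12 (adjusted p = 0.0822).

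Dnmt3b, the other methyltransferase for new sites (NM_001003959, rn6 chr3:149131541-149170062), had low counts. It ran from 23.9 through a median of 29.6 to 51.1 normalised counts in VEH, from 22.9 through 33.8 to 49.3 in PB, and from 12.1 through 35.6 to 50.4 in LEV. The 3 ranges overlapped almost fully. The log2 fold change was 0.13 ± 0.14 in PB (edgeR adjusted p = 0.68) and 0.15 ± 0.14 in LEV (adjusted p = 0.949), with 95% intervals of -0.16 to 0.41 and -0.14 to 0.43.

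Dnmt1, the maintenance methyltransferase (NM_053354, rn6 chr8:21922515-21968496), was the member whose PB difference passed in the comparison of all animals. Its normalised counts ran from 781.8 through a median of 868.3 to 991.9 in VEH, from 819.9 through 946.7 to 1119 in PB, and from 830.0 through 872.2 to 983.7 in LEV. PB was the highest group and VEH and LEV lay side by side, with all 3 ranges overlapping. PB was higher than VEH by 0.16 ± 0.04 on the log2 scale, a fold change of 1.12 (12 of 14 animals above the VEH mean of their form, edgeR adjusted p = 0.0152). Leaving out each animal in turn kept the adjusted p between 0.00518 and 0.034, and without VEH 1 it was 0.0162. LEV differed from VEH by 0.02 ± 0.04 (edgeR adjusted p = 0.984, 95% interval -0.06 to 0.10). PB was higher than LEV by 0.13 ± 0.04 (12 of 14 animals, edgeR adjusted p = 0.0398, and 0.0455 without VEH 1). This last call was lost without any 1 of LEV 2, LEV 3, LEV 6, LEV 8, LEV 10 to LEV 14, PB 2 and PB 7 to PB 11, with adjusted p up to 0.0907.

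For Dnmt1 in animals 7 to 14, VEH ran from 781.8 through 844.2 to 991.9, PB from 896.9 through 1009 to 1119, and LEV from 830.0 through 868.9 to 983.7. All 8 PB animals were above the VEH mean, at 0.22 ± 0.05 (edgeR adjusted p = 0.00963, and 0.0106 without VEH 1), and all 8 were above the LEV mean, at 0.19 ± 0.05 (adjusted p = 0.0383; 1 of 8 members called, 1.66% of all transcripts). The call against VEH held without each animal in turn (highest adjusted p = 0.0306), and that against LEV was lost without any 1 of 10 animals (LEV 8, LEV 10 to LEV 12, LEV 14, PB 7 to PB 11; highest 0.11). Among animals 1 to 6 PB ran from 819.9 to 1089 and VEH from 837.5 to 930.0, at 0.08 ± 0.06 (4 of 6 animals, adjusted p = 0.701). The difference between forms was 0.14 ± 0.08 (edgeR adjusted p = 0.526).

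Uhrf1, which guides Dnmt1 to replicated DNA (NM_001008882, rn6 chr9:10739306-10758404), ran from 35.4 through a median of 58.2 to 76.2 normalised counts in VEH, from 47.4 through 66.1 to 134.4 in PB, and from 50.8 through 66.7 to 85.5 in LEV. The PB group reached the highest values and the ranges overlapped. Over all animals PB was at 0.34 ± 0.13 against VEH (9 of 14 animals, edgeR adjusted p = 0.127) and LEV at 0.21 ± 0.13 (10 of 14, adjusted p = 0.884). Among animals 7 to 14, VEH ran from 35.4 through 56.6 to 76.2, PB from 51.5 through 77.7 to 134.4, and LEV from 54.2 through 69.7 to 81.5. There PB was higher than VEH by 0.58 ± 0.18, a fold change of 1.5 (7 of 8 animals, edgeR adjusted p = 0.0389, and 0.0426 without VEH 1), the member call of this comparison that also passed the limit of 25%. It was lost without any 1 of PB 7, PB 8, PB 10, PB 11, VEH 8, VEH 11, VEH 12 and VEH 13 (highest adjusted p = 0.12). LEV was at 0.37 ± 0.18 with all 8 animals above the VEH mean (edgeR adjusted p = 0.808). In animals 1 to 6 the PB and LEV values were 0.05 ± 0.20 and 0.04 ± 0.20, and the PB difference between forms was 0.53 ± 0.26 (edgeR adjusted p = 0.45).

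**Figure D3:**
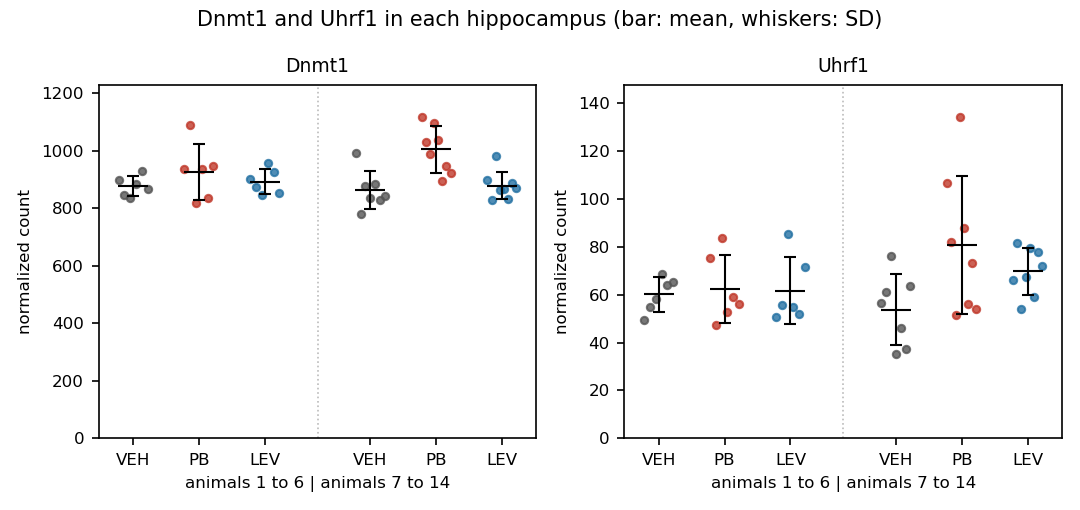
Normalised counts of Dnmt1 and Uhrf1 in each animal (points) by treatment, animals 1 to 6 left and animals 7 to 14 right of the dotted line; bars are means and whiskers SD. In animals 7 to 14 the PB means (1005 for Dnmt1, 80.8 for Uhrf1) stand above those of VEH (863.7 and 53.8).

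A list of 15 S phase and mitosis genes moved with Uhrf1 and is given beside it. The list summed to 1983 through a median of 2078 to 2447 in VEH animals 7 to 14, to 2214 through 2643 to 3038 in PB and to 1976 through 2187 to 2500 in LEV. In PB against VEH in these animals 4 of its 15 transcripts were called higher and 0 lower, with a median log2 fold change of 0.33, against a median over all transcripts of 0.0025; without VEH 1 the same counts were 4 and 0. Mature neuron markers moved the other way: they summed to 38574 to 49720 in PB and 49765 to 60098 in VEH animals 7 to 14, ranges that did not overlap, with 1 of 8 transcripts called lower in these animals (median log2 fold change -0.18) and 2 of 8 over all animals (median -0.14, and 1 called without VEH 1). Their part in the PB differences of Uhrf1 and Dnmt1 was not tested. Over all animals edgeR called 0 of the 15, and in animals 1 to 6 the list summed to between 1948 and 2233 in VEH and between 1523 and 2320 in PB. After the means of the 6 combinations of treatment and form had been removed, Uhrf1 and the list were correlated over the 41 animals, with Pearson's r = 0.471 (permutation p = 0.00112, adjusted over 6 relations 0.00672) and Spearman's rho = 0.469 (permutation p = 0.00271, adjusted 0.0163). The r was 0.453 in animals 1 to 6 (n = 18; 0.30 without PB 2), 0.518 in animals 7 to 14 (n = 23), and 0.48 without the 2 animals farthest from the median of the list.

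The pooled r of Dnmt1 with the list was -0.00486 (permutation p = 0.975; rho = 0.225, permutation p = 0.159), with -0.645 in animals 1 to 6 and 0.60 in animals 7 to 14. The value in animals 1 to 6 rested on PB 2, without which it was -0.0158 (n = 17), while leaving out each animal in animals 7 to 14 gave 0.496 to 0.76. PB 2, with a list residual of -0.57 log2 CPM, was far from all other animals, and without the 2 farthest animals the pooled r was 0.279. Uhrf1 and Dnmt1 had no correlation that passed the test over all animals (r = 0.0777, permutation p = 0.635; -0.575 in animals 1 to 6, -0.464 there without PB 2, and 0.414 in animals 7 to 14). Against a list of 10 immediate early genes neither Dnmt3a transcript passed the test, at r = -0.222 (permutation p = 0.194) for the shorter and 0.0855 (permutation p = 0.542) for the longer, and the 2 transcripts had an r of -0.262 with each other (permutation p = 0.0813, adjusted 0.244).

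**Figure D4:**
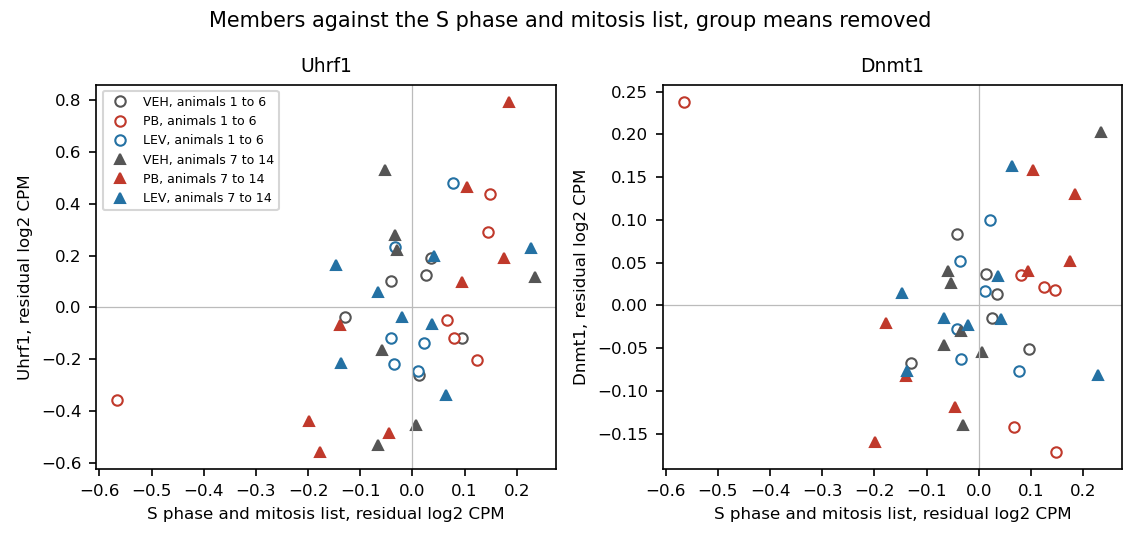
Residual log2 CPM of Uhrf1 (left) and Dnmt1 (right) against that of the S phase and mitosis list in the 41 animals, after removal of the mean of each treatment and form; open circles are animals 1 to 6 and filled triangles animals 7 to 14. Uhrf1 has r = 0.453 with the list in animals 1 to 6 and 0.518 in animals 7 to 14, and Dnmt1 has -0.645 and 0.60; PB 2 lies alone at the left, and without it the values in animals 1 to 6 are 0.30 for Uhrf1 and -0.0158 for Dnmt1.

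The readers varied little. Mbd1 (NM_001011924, rn6 chr18:70248713-70263167), which links methylated DNA to histone methylation, ran from 393.8 through a median of 452.1 to 522.6 normalised counts in VEH, from 422.8 through 488.9 to 532.1 in PB, and from 410.6 through 468.1 to 516.7 in LEV. Mbd2 (NM_001115025, chr18:65814026-65885116), a methylated-DNA binding subunit of NuRD, had means of 395.3 ± 38.4 (SD, n = 13), 413.9 ± 55.0 (n = 14) and 402.7 ± 41.7 (n = 14) in VEH, PB and LEV. Mbd3 (NM_001108735, chr7:12179046-12186249), which takes the place of Mbd2 in other NuRD complexes, had means of 899.4 ± 96.6 (n = 13), 920.1 ± 47.1 (n = 14) and 898.5 ± 57.2 (n = 14). The treatment ranges of all 3 readers overlapped. Across all animals their log2 fold changes lay between 0.03 and 0.07 in PB and between -0.0011 and 0.03 in LEV, and the 95% intervals stayed within -0.09 and 0.19, so none passed the test. Mbd2 in animals 1 to 6 was at 0.21 ± 0.09 in PB (5 of 6 animals above the VEH mean, edgeR adjusted p = 0.411) and at 0.16 ± 0.09 in LEV (adjusted p = 0.48), against -0.05 ± 0.08 and -0.08 ± 0.08 in animals 7 to 14. The PB difference between the forms was -0.27 ± 0.12 (edgeR adjusted p = 0.397).

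**Figure D5:**
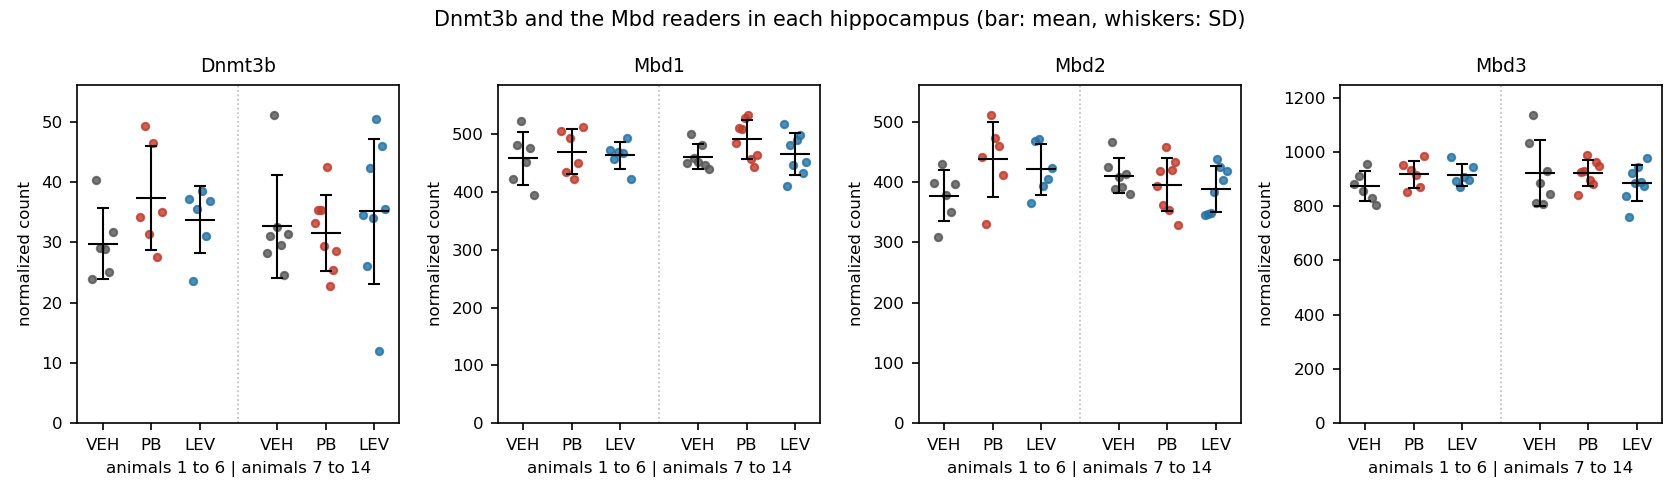
Normalised counts of Dnmt3b, Mbd1, Mbd2 and Mbd3 in each animal (points) by treatment, animals 1 to 6 left and animals 7 to 14 right of the dotted line; bars are means and whiskers SD. The treatments overlap for all 4 genes; the lowest Dnmt3b value is LEV 12 (12.1) and the highest VEH 10 (51.1).

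Another 68 genes of DNA methylation were listed as other writers and readers, demethylation enzymes, NuRD subunits, methyl donor genes and partners of the members. Of these, 52 were tested as 54 transcripts. In PB against VEH 4 were called higher and 1 lower, or 9.26% against 5.39% of all transcripts, with 0 past the limit of 25%. Setdb1, a histone H3 lysine methyltransferase that works with Mbd1, had 966.5 through 1032 to 1178 normalised counts in VEH and 1103 through 1147 to 1247 in PB, and was higher by 0.14 ± 0.03 (14 of 14 animals above the VEH mean, edgeR adjusted p = 0.00383). Mbd6, another protein with a methyl-CpG binding domain, was higher by 0.20 ± 0.05 (12 of 14, edgeR adjusted p = 0.00844). Its mean was 863.6 normalised counts in VEH, 986.3 in PB and 969.2 in LEV. In LEV 12 of 14 animals were also above the VEH mean, without a call over all animals. Mtr, the methionine synthase, was higher by 0.25 ± 0.08 (11 of 14, edgeR adjusted p = 0.0432). Ahcyl1, related to S-adenosylhomocysteine hydrolase, fell by 0.11 ± 0.03 on the log2 scale (13 of 14 animals below, edgeR adjusted p = 0.0154). Without VEH 1 there were 3 calls higher and 1 lower, and these 4 genes were still called (highest edgeR adjusted p = 0.0408, for Mtr).

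In LEV against VEH edgeR called 0 of the 54 transcripts over all animals and 2 in animals 1 to 6, where 1.45% of all transcripts were called. Mbd6, named here after its value was seen, was higher in LEV in these animals by 0.25 ± 0.07 (edgeR adjusted p = 0.0490). Without VEH 1 there were 0 calls in animals 1 to 6 (edgeR adjusted p = 0.148 for Mbd6). Over all animals, PB against LEV gave 4 calls, 7.41% against 4.45% of all transcripts: Ehmt1, a histone H3 lysine methyltransferase, was higher in PB by 0.16 ± 0.04 (14 of 14 animals above the LEV mean, edgeR adjusted p = 0.0113), Setdb1 by 0.11 ± 0.03 (14 of 14, adjusted p = 0.0182) and the corepressor Ncor1 by 0.11 ± 0.03 (11 of 14, adjusted p = 0.0372), while Ahcyl1 fell by 0.10 ± 0.03 (11 of 14 below, adjusted p = 0.0306). The 3 PB-high genes came from the list of partners, whose 17 transcripts had a median log2 fold change of 0.08 in this comparison. The 8 demethylation transcripts and the 9 NuRD transcripts had no call over all animals in PB against VEH or in PB against LEV. Within animals 7 to 14 alone, PB against VEH gave 7 higher and 1 lower of 54, or 14.8% against 6.32% of all transcripts, and LEV against VEH gave 0. In the PB comparison 1 of the 9 NuRD transcripts was called, Chd5, a chromatin remodeller named after its value was seen, which was higher by 0.20 ± 0.05 (edgeR adjusted p = 0.0178), and 0 of the 8 demethylation transcripts were called.

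The transcripts whose residuals were most like those of each member over the 41 animals were found among 11015 or 11016 others, as a description. For the longer Dnmt3a transcript these were Dst (r = 0.857), Trim44 (0.850) and Map2 (0.848). For the shorter one they were Pdzd11 (0.624), Mtpap (0.604) and Oaz2 (0.532). Dnmt1 was most like Tgs1 (0.667), Srgap2 (0.656) and Kidins220 (0.651), and Uhrf1 most like Bod1 (0.519), Adcy6 (0.510) and Mrpl18 (0.507). These values share library and depth, and each is the highest of many.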

How the data were processed

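Hippocampal RNA libraries of 42 rat pups were made with the NEBNext Ultra RNA kit. The authors aligned reads to the rat genome rn6 with STAR 2.7.3a and deposited estimated counts per RefSeq transcript from an expectation-maximization step in Partek, before their batch normalization. The strand setting is not given in the sources used here. The other deposited table holds the authors' own comparisons (p-values, adjusted p-values, ratios, fold changes and group means) and was not used.

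Counts were rounded to whole numbers, of which 13.7% had not been whole, and VEH 7, labelled as excluded, was left out. Transcripts were filtered with filterByExpr and scaled by TMM, and edgeR 4.0.16 (limma 3.58.1, R 4.3.3) quasi-likelihood tests were run with terms for treatment and form of sample code, or for the 6 combinations of both within forms and for interactions. P-values were adjusted by Benjamini-Hochberg over 13062 transcripts or 12165 gene sums. SE is that of the log2 fold change and 95% intervals are 1.96 SE. Shares and relations were tested by two-sided permutation in Python 3.11.15 with numpy 2.4.6 (exact within forms, otherwise 100000 resamples within forms). Relations used log2 CPM residuals with a prior count of 2, and scipy 1.17.1 gave the ranks for rho. The test script was tested on simulated data. Replicates are animals. The study balanced treatments within litter, so littermates recur across treatments, but the labels do not give each animal's litter. The main tests had no litter term and treated animals as independent, and their p-values measure the spread between these animals.

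Members were taken by gene symbol. Other pathway genes were named where the adjusted p was under 0.05 in a comparison of all animals (at most 15; some called genes are not reported here), and the 3 most alike transcripts where the mean was at least 50 normalised counts. The members and lists were chosen with earlier results of these data known. Alternatives were DESeq2 1.42.0, other scaling and filters, other batch terms, a replicate block, all 14 VEH animals, a choroid plexus covariate and leaving out each animal.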

Additional observations from a re-analysis of the deposited data

Results flagged for a closer look

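Among 60 groups of 6 to 8 animals, 2 held an animal far from the others, where chance gives about 1 in 20. LEV 9 had 983.7 normalised counts of Dnmt1, against a next highest of 899.3 in LEV animals 7 to 14. VEH 10 had 51.1 normalised counts of Dnmt3b, against a next highest of 32.5 in VEH animals 8 to 14.

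The LEV response of the Dnmt3a gene sum differed between the forms of sample code by 0.48 ± 0.12 on the log2 scale (edgeR's quasi-likelihood test, Benjamini-Hochberg adjusted p = 0.0316). All 6 LEV animals 1 to 6 lay below the VEH mean of their form, with a mean of 1294 normalised counts, and all 8 LEV animals 7 to 14 lay above theirs, with a mean of 1446.

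The animal labelled as excluded, VEH 7, lay above all 13 VEH animals in 4 values. Its longer Dnmt3a transcript had 2142 normalised counts (875.1 to 1615 in the 13), its Dnmt3a gene sum 2165 (928.4 to 1623), Mbd2 504.5 (309.1 to 466.4) and Mbd3 1495 (805.9 to 1135). Its share of the 18S rRNA gene Rn18s was 2.42%, against 0.384% to 1.68% in the 41 animals compared, and Eif2s3y had 120.1 normalised counts.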

How the results depend on the processing

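No value changed direction past the test under any alternative. DESeq2 called 1 member in the PB and 1 in the LEV difference between forms (the longer Dnmt3a transcript), against 0. Over all transcripts it called 45 and 207 there, against 9 and 110 with edgeR. The Dnmt1 call in PB against LEV over all animals went to 0 with no filter (adjusted p = 0.0512), no form term (0.0565), a form by treatment term (0.0538), all 14 VEH animals (0.0795), only the groups compared (0.0613) and the replicate block (0.062). These settings called between 174 and 601 transcripts in all, against 581 in the main fit. The LEV against VEH count over all animals became 1 with the form by treatment term and 1 with batch effects subtracted. Over all transcripts these settings called 17 and 67, against 1 in the main fit. Fitted alone, animals 1 to 6 gave 2 calls in LEV against VEH (the longer Dnmt3a transcript at -0.31, adjusted p = 0.00999), and animals 7 to 14 gave 1 call in PB against VEH (longer Dnmt3a 0.0834, Uhrf1 0.0854) and 0 in PB against LEV (Dnmt1 0.0623). In the same order these fits called 346, 534 and 132 transcripts in all, against 190, 825 and 217 in the main fit. Per gene sum, LEV against VEH in animals 1 to 6 gave 0, the LEV difference between forms 1, the forms within VEH 1 and within LEV 0. In the same order 184, 104, 870 and 2087 of all gene sums were called. Whether animal numbers pair the samples is not known: 10 of 40 same-numbered pairs correlated above 0.1, and 7 of 41 animals correlated best with their own number. The counts expected by chance were not worked out, so this check cannot exclude pairing by number or litter. With the replicate block the LEV difference between forms gave 1 call (longer Dnmt3a, adjusted p = 0.0482), where 111 transcripts were called in all. Gene sums of the members gave 1 call in place of 2 with this block, as with all 14 VEH animals (1). The r of the Dnmt3a transcripts was -0.384 over all 42 animals (permutation, adjusted p = 0.0277) and -0.448 with means removed additively (0.00816). Leaving out each animal gave share differences of 1.45 to 2.65 points in LEV against VEH, -2.52 to -1.37 in PB against LEV and -0.166 to 0.448 in PB against VEH, 1.00 to 2.19 in PB against VEH in animals 1 to 6 and -4.20 to -2.09 in PB against LEV in animals 7 to 14, and member counts of 0 to 2 in PB against LEV, 0 to 1 in PB against LEV in animals 7 to 14, 1 to 3 in PB against VEH in animals 7 to 14, and 0 to 1 in the PB and LEV differences between forms. The comparison of forms within a treatment and the alternatives of the Dnmt3a gene sum in the model of 6 combinations were added after seeing the data, as were the values of shares and relations within a form without each animal and of the other lists without VEH 1. Dnmt3b, Uhrf1 and the shorter Dnmt3a transcript had few counts, which limits the precision of their changes.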
